A study of Homo sapiens with 9 samples.

Results

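Cytokine signalling through the JAK kinases and STAT factors was examined in breast cancer cells transfected with tissue factor pathway inhibitor, by the signals of 9 genes: IL6ST, JAK1, JAK2, TYK2, STAT3, STAT5A, STAT5B, STAT6 and SOCS3. The genes were chosen by name, and each was read from the probe set that the annotation of the array maps to that symbol alone. Every one of the 9 had exactly 1 such probe set, out of 18417 genes measured in this way. TFPI is an inhibitor of the start of blood coagulation and is made in an α and a β form by alternative splicing. The arrays are labelled as RNA of SK-BR-3 cells, a luminal-like breast tumour line known for its amplified ERBB2, stably transfected with cDNA of TFPIα (3 arrays), with cDNA of TFPIβ (3 arrays) or with the empty vector pTOPO (3 arrays). All 3 cell lines were pools of cells that had kept the vector under an antibiotic, which is puromycin in the labels and neomycin in the methods of the study. The titles call the 3 arrays of a group biological replicates 1 to 3, and the design text and the methods describe them as independent RNA isolations. Neither says whether these came from separate cultures, so the p-values measure the spread between replicates of 1 cell line per group, and a change of the cell line as such cannot be told apart from a change of the vector.

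Cytokines of the interleukin-6 family bind receptors that share the signalling chain gp130, the product of IL6ST. Kinases of the JAK family rest on the inner part of such receptors and, once a cytokine has bound, phosphorylate the receptor and the STAT factors that dock there. Phosphorylated STAT factors pair, enter the nucleus and switch on target genes, among them SOCS3, whose product blocks gp130 and its kinases and so closes a feedback loop. In breast epithelium STAT5 is known for its part in milk production, STAT6 for signalling from interleukin-4 receptors, and STAT3 for the involution of the gland and for its activity in many tumours. Phosphorylation of these proteins leaves no trace on an expression array, so the values below are transcript levels only.

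The transfected gene and the cell type were looked at first. TFPI had log2 signals of 5.66, 5.81 and 5.51 in the arrays labelled TFPIα and 5.55, 5.79 and 5.81 in those labelled TFPIβ, against 5.81, 6.48 and 6.45 in those labelled empty vector. The log2 difference from empty vector was -0.59 for TFPIα (limma, adjusted p = 0.335) and -0.53 for TFPIβ (adjusted p = 1.00). The study states that the transfected cDNA held the coding region alone and that the array reads TFPI outside it. It measured the overexpression by other assays. With PLIER, an algorithm that leaves out probes of low signal, it also reports TFPI as upregulated on the arrays of both TFPI cell lines. The RMA signals here showed no such rise, and the reason was not tested. This signal alone therefore does not check the labels TFPIα and TFPIβ. Probe positions were not analysed here. Among the luminal markers ERBB2 averaged 5.88 over the 9 arrays, KRT8 5.86, KRT19 4.88, GATA3 5.31, FOXA1 4.83, ERBB3 3.66 and ESR1 3.63, while KRT18 reached 10.40. The basal keratins KRT5 and KRT14 averaged 12.64 and 12.43, and VIM 10.55. The low ERBB2 and the high basal keratins go against the labelled SK-BR-3 cells of luminal-like origin, so every group name below stands for the arrays labelled with it, whatever cells they hold. Of the markers of other cell types, the leukocyte genes PTPRC, CD3E and ITGAM averaged 2.23, 3.50 and 3.93, CD14 7.67 and CD68 7.46, and the endothelial genes VWF, CDH5 and PECAM1 averaged 3.47, 3.56 and 5.46. Among the fibroblast markers LUM averaged 3.63, COL3A1 4.28, COL1A2 4.34, COL1A1 7.07 and DCN 10.13. The median log2 signal of an array lay between 4.78 and 4.88. A probe set was tested if its highest log2 signal over the 9 arrays was at least 5, which left 17482 of 33297.

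Regulatory regions of 4 genes are shown, STAT3, JAK1, STAT6 and STAT5A. The pairs whose signals followed one another most closely over the arrays lay among them. Each line gives the 250 bases before the annotated transcription start, from RefSeq on GRCh38.p14 and read 5′ to 3′ on the strand of the gene.
STAT3, chr17:42388443-42388692, minus strand: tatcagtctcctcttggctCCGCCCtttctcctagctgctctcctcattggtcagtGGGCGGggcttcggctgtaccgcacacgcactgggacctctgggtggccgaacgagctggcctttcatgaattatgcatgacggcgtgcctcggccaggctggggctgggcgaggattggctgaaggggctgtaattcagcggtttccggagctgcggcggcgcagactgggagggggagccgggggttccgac
JAK1, chr1:65067747-65067996, minus strand: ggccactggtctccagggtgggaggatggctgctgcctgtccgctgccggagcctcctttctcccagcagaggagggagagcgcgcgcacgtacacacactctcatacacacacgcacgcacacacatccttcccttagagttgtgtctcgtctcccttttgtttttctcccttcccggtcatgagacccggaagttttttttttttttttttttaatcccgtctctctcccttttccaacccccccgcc
STAT6, chr12:57110290-57110539, minus strand: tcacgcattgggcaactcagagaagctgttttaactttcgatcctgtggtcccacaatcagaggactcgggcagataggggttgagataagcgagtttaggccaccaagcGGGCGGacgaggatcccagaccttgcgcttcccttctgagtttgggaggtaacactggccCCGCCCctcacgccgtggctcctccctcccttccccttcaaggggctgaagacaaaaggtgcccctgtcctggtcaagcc
STAT5A, chr17:42287189-42287438, plus strand: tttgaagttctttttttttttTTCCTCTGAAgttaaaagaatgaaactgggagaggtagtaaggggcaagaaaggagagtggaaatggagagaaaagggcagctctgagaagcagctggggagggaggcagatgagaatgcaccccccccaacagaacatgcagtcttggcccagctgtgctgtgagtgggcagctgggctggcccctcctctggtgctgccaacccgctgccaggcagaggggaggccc
Capitals mark the GC box GGGCGG, on either strand, in STAT3 and STAT6, and in STAT5A the motif TTCNNNNGAA, the spacing that STAT6 is known to prefer. The window of STAT6 lies 1073 bases inside the annotated start of the gene, which has several transcripts. Of the 9 genes 4 held GGGCGG in their window (IL6ST, STAT3, STAT5B and STAT6), against 42.2% of 27305 windows of the same length. The window of STAT5B, not shown, lies 11979 bases inside the annotated start of its gene. The shorter-spaced motif TTCNNNGAA, which STAT3 and STAT5 dimers recognise, was in the window of 0 of the 9 genes and in 6.76% of all windows. TTCNNNNGAA was in 1 of 9 and in 5.37% of all windows, and the TATA box TATAAA in 0 of 9 and in 11.2%. Both strands were searched, and these are matches of letters with no statement on binding.

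The 9 genes lie on 6 chromosomes, with 4 of them on chromosome 17 of GRCh38. STAT5B (chr17:42199177-42288370, minus strand), STAT5A (chr17:42287439-42311943, plus strand) and STAT3 (chr17:42313324-42388442, minus strand) are neighbours within 189266 bases. The annotated STAT5B and STAT5A genes overlap by 932 bases at their starts, and 1380 bases separate STAT5A from STAT3. Because STAT5A and STAT5B are near-identical copies that also overlap, their signals can share hybridisation and are uncertain as measures of each gene alone.

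None of the 9 genes passed the test in TFPIα against empty vector. A call needed at least a 2-fold change and, by Benjamini-Hochberg over all tested probe sets, an adjusted p under 0.05. By limma 0 of 9 genes were called, against 0.00572% of the 17482 probe sets (1 probe set), and by the one-way model without variance moderation 0 of 9 as well. JAK1 and STAT3 had an unadjusted p under 0.05, both lower in TFPIα, which is 2 of 9 genes against 5.58% of all probe sets lower at that level. With the one-way model 1 of 9 had such a p. The groups of arrays did not overlap for 3 of 9 genes (STAT3, STAT6 and JAK1), again lower in TFPIα, against 8.85% of all probe sets. The median log2 difference of the 9 genes was -0.14, against 0 over all probe sets, and 8 of 9 differences lay below 0, against 50.0% of all. JAK2 and STAT5A each reached the signal filter in a single array, of the group in which their mean was highest, so these counts are also given without them: 7 of 7 lay below 0, with a median of -0.14.

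The arrays labelled TFPIβ gave the same count of calls. By limma and by the one-way model 0 of 9 genes were called against empty vector, as were 0% of all probe sets. STAT3 and JAK1 had an unadjusted p under 0.05 in this comparison too, lower in TFPIβ, which is 2 of 9 against 2.23% of all probe sets. They were also the 2 of 9 genes whose groups did not overlap, against 3.74%. The median of the 9 log2 differences was -0.21, against 0.0017 over all probe sets, and 9 of 9 lay below 0, against 49.5%. Without JAK2 and STAT5A 7 of 7 lay below 0, with a median of -0.26. Both comparisons use the same 3 arrays labelled empty vector, so their values are not independent of each other. In TFPIβ against TFPIα 0 of 9 genes were called by limma and by the one-way model, as were 0% of all probe sets, 0 of 9 had an unadjusted p under 0.05, and 0 of 9 did not overlap in either direction, against 13.3% of all probe sets.

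**Figure D1:**
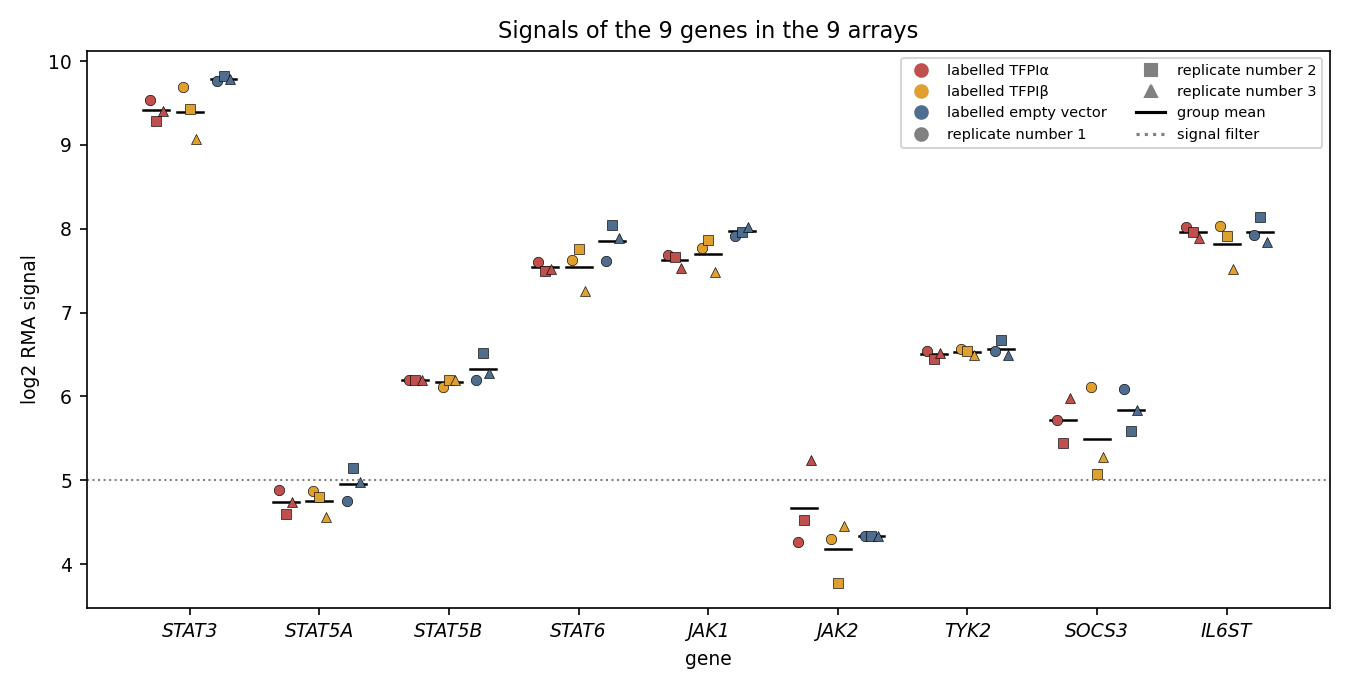
Log2 RMA signals (vertical axis) by gene (horizontal axis), 9 points a gene, with colours for the group of the label, marker shapes for the replicate number, bars for group means and a dotted line at the signal filter of 5. The 3 arrays labelled empty vector lie above all 6 others for STAT3 and JAK1, and JAK2 passes the filter in 1 array only.

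IL6ST, the common signal chain of the interleukin-6 family, had log2 signals of 8.02, 7.97 and 7.89 in the arrays labelled TFPIα and 8.03, 7.91 and 7.52 in those labelled TFPIβ, against 7.93, 8.14 and 7.84 in those labelled empty vector. All groups overlapped, and the lowest value stood in replicate 3 of TFPIβ. Against empty vector it differed by a log2 value of -0.0096 (SE 0.14, adjusted p = 0.981) in TFPIα and by -0.15 (SE 0.14, adjusted p = 1.00) in TFPIβ. Without replicate 3 of TFPIβ the difference for TFPIβ was 0.0052, and without replicate 2 of empty vector that for TFPIα was 0.074, so the sign depended on single arrays. Centring each array on its median also turned the sign in TFPIα, to 0.0149.

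JAK1, a kinase that gp130 and the interferon and interleukin-4 receptors share, had 7.69, 7.66 and 7.53 in the arrays labelled TFPIα and 7.77, 7.86 and 7.48 in those labelled TFPIβ, against 7.92, 7.96 and 8.03 in those labelled empty vector. Each of the 3 arrays labelled empty vector lay above each of the other 6. JAK1 differed on the log2 scale by -0.34 (SE 0.11, unadjusted p = 0.0148, adjusted p = 0.335) in TFPIα against empty vector and by -0.26 (SE 0.11, unadjusted p = 0.0431, adjusted p = 1.00) in TFPIβ against empty vector. Neither passed after adjustment over all probe sets, of which 4.34% in TFPIα and 4.06% in TFPIβ had a lower p than JAK1. With any 1 array left out, the difference stayed between -0.37 and -0.29 for TFPIα and between -0.34 and -0.15 for TFPIβ, the last without replicate 3 of TFPIβ.

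JAK2, the kinase known for growth hormone, prolactin and erythropoietin receptors, had 4.26, 4.53 and 5.24 in the arrays labelled TFPIα and 4.30, 3.78 and 4.45 in those labelled TFPIβ, against 4.34 in each of the 3 arrays labelled empty vector. It passed the filter only through replicate 3 of TFPIα, and the other 8 arrays lay under 5, so its differences are a description with no test read from them. In TFPIα against empty vector the log2 difference was 0.34, and 0.056 without that array. In TFPIβ against TFPIα it was -0.50, and -0.22 without the same array. In TFPIβ against empty vector it was -0.16, and 0.0386 without replicate 2 of TFPIβ. The value of JAK2 in the arrays labelled empty vector was identical to every digit deposited, as it was for 711 probe sets in that group.

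TYK2, which serves the interferon, interleukin-12 and gp130 receptors, varied least. Its log2 signals were 6.55, 6.45 and 6.52 in the arrays labelled TFPIα and 6.57, 6.54 and 6.49 in those labelled TFPIβ, against 6.54, 6.67 and 6.50 in those labelled empty vector. The groups overlapped throughout, and the log2 differences were -0.07 (SE 0.08, adjusted p = 0.715) for TFPIα and -0.04 (SE 0.08, adjusted p = 1.00) for TFPIβ against empty vector. Without replicate 2 of empty vector they were -0.0146 and 0.0142.

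STAT3, the main factor downstream of gp130, had log2 signals of 9.54, 9.29 and 9.41 in the arrays labelled TFPIα and 9.69, 9.43 and 9.07 in those labelled TFPIβ, against 9.76, 9.82 and 9.79 in those labelled empty vector. The group means were 9.41 ± 0.13 for TFPIα, 9.39 ± 0.31 for TFPIβ and 9.79 ± 0.03 for empty vector (SD, n = 3 each), with every array labelled empty vector above the other 6. On the log2 scale STAT3 differed by -0.38 (SE 0.15, unadjusted p = 0.0352, adjusted p = 0.346) in TFPIα against empty vector and by -0.40 (SE 0.15, unadjusted p = 0.0293, adjusted p = 1.00) in TFPIβ against empty vector. In TFPIα 10.2% and in TFPIβ 2.72% of all probe sets had a lower p. The study reports the opposite direction, with STAT3 upregulated in both TFPI cell lines. It states that qRT-PCR bore out all the mRNAs it selected for this check, STAT3 among them. For both cell lines it also reports far more differentially expressed transcripts than were called here. More transcripts passed its signal filter, set at the same value of 5, than passed here. The reason for these differences was not tested. For STAT3, TFPIα minus empty vector was -0.22, -0.53 and -0.38 in replicate numbers 1, 2 and 3. TFPIβ minus empty vector was -0.07, -0.39 and -0.72. Without replicate 3 of TFPIβ it was -0.23. Less STAT3 RNA per cell and fewer cells that make it cannot be told apart in bulk RNA, here or for any other gene.

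STAT6, the factor of interleukin-4 and interleukin-13, had 7.60, 7.50 and 7.52 in the arrays labelled TFPIα and 7.63, 7.76 and 7.26 in those labelled TFPIβ, against 7.62, 8.04 and 7.89 in those labelled empty vector. The TFPIα arrays lay below those of empty vector, although TFPIα minus empty vector was only -0.02 in replicate number 1, and the TFPIβ arrays overlapped with both groups. The log2 difference was -0.31 (SE 0.15, unadjusted p = 0.0729, adjusted p = 0.378) in TFPIα against empty vector and -0.30 (SE 0.15, unadjusted p = 0.0797, adjusted p = 1.00) in TFPIβ against empty vector. The difference for TFPIβ was -0.16 without replicate 3 of TFPIβ.

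STAT5A, one of the pair of STAT5 factors that prolactin activates, had 4.89, 4.59 and 4.74 in the arrays labelled TFPIα and 4.88, 4.80 and 4.56 in those labelled TFPIβ, against 4.75, 5.14 and 4.98 in those labelled empty vector. It passed the filter only through replicate 2 of empty vector, and the groups overlapped. Its differences from empty vector, -0.22 for TFPIα and -0.21 for TFPIβ on the log2 scale, are therefore a description with no test read from them, and they were -0.12 and -0.11 without that array.

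STAT5B, its near-identical neighbour, had 6.19 in each of the 3 arrays labelled TFPIα and 6.11, 6.20 and 6.19 in those labelled TFPIβ, against 6.19, 6.52 and 6.28 in those labelled empty vector. The deposited value 6.19 was the same to the last digit in 5 arrays of 3 groups, and in the arrays labelled TFPIα 733 probe sets were identical in all 3, so the spread of STAT5B there does not measure the error of the array. The log2 difference was -0.14 (SE 0.10, adjusted p = 0.502) for TFPIα and -0.16 (SE 0.10, adjusted p = 1.00) for TFPIβ against empty vector, and without replicate 2 of empty vector it was -0.05 and -0.07.

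SOCS3, the feedback inhibitor, had log2 signals of 5.72, 5.44 and 5.98 in the arrays labelled TFPIα and 6.12, 5.07 and 5.28 in those labelled TFPIβ, against 6.09, 5.59 and 5.84 in those labelled empty vector. The groups overlapped, and the 3 arrays labelled TFPIβ spanned a wider range than all 6 others. The log2 difference was -0.13 (SE 0.27, adjusted p = 0.851) for TFPIα and -0.35 (SE 0.27, adjusted p = 1.00) for TFPIβ against empty vector. The difference for TFPIβ was -0.67 without replicate 1 of TFPIβ and -0.15 without replicate 2 of TFPIβ, and that for TFPIα was -0.26 without replicate 3 of TFPIα and 0.0076 without replicate 2 of TFPIα, and -0.0015 without replicate 1 of empty vector and -0.25 without replicate 2 of empty vector.

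**Figure D2:**
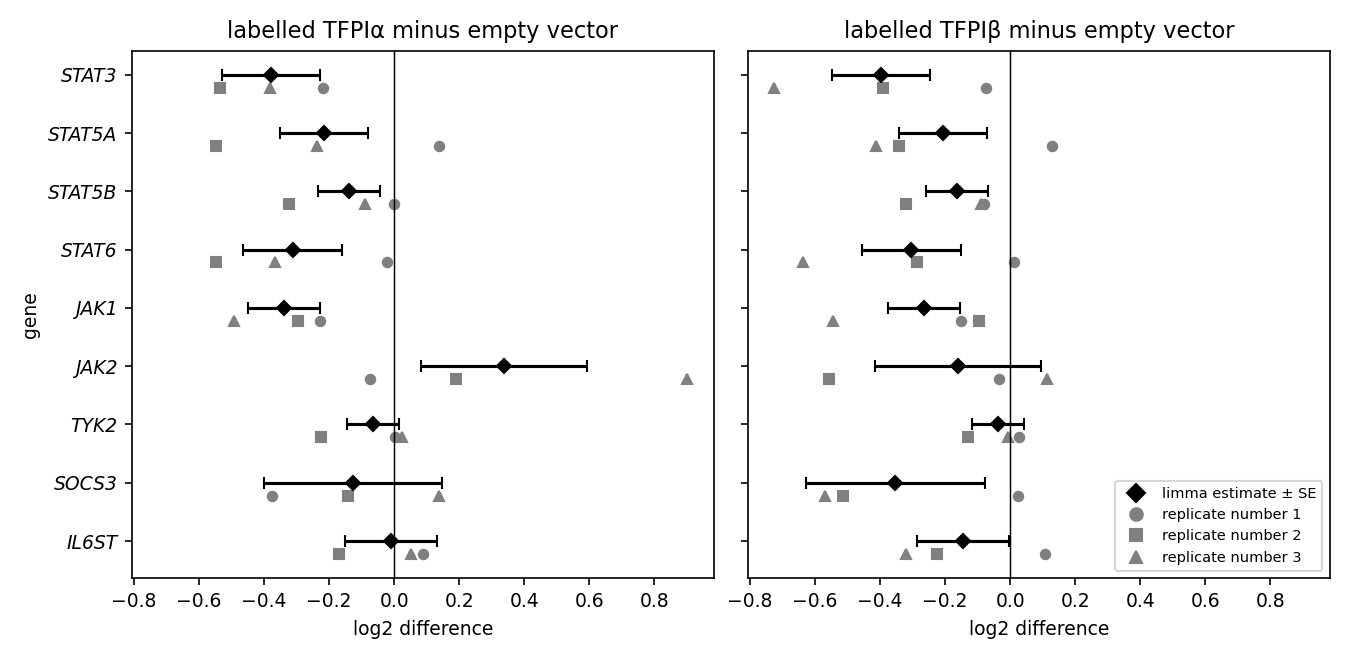
Log2 difference (horizontal axis) of each of the 9 genes (vertical axis) in the arrays labelled TFPIα (left) and TFPIβ (right) minus empty vector, with diamonds for the limma estimate, bars for its standard error and grey markers for the difference within each replicate number. STAT3 and JAK1 lie below 0 in all 3 replicate numbers of both panels, whereas SOCS3, IL6ST and TYK2 fall on both sides of 0.

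The extremes stood mostly in a pair of arrays. Replicate 3 of TFPIβ held the lowest of the 9 signals for 5 genes (IL6ST, JAK1, STAT3, STAT5A and STAT6), and replicate 2 of empty vector the highest for 6 (IL6ST, STAT3, STAT5A, STAT5B, STAT6 and TYK2). In TFPIα against empty vector the number of genes with an unadjusted p under 0.05 ranged from 0 to 3 when 1 array was left out. It was 0 without replicate 3 of TFPIα, 1 without replicate 2 of TFPIα or without replicate 2 or 3 of empty vector, and 3 without replicate 3 of TFPIβ or replicate 1 of empty vector. In TFPIβ against empty vector it ranged from 0 to 2, with 0 without replicate 3 of TFPIβ or without replicate 2 or 3 of empty vector, and 1 without any 1 of the arrays labelled TFPIα.

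The replicate number was then set beside the group. In a model with both, limma's F test of the replicate number called 0 of 9 genes, as it did 0% of all probe sets, and 0 of 9 had an unadjusted p under 0.05, against 16% of all probe sets. SOCS3 came closest (unadjusted p = 0.0502, adjusted p = 0.313). Its mean over the 3 groups was 5.97 ± 0.22 in replicate number 1, 5.37 ± 0.27 in number 2 and 5.70 ± 0.37 in number 3 (SD, n = 3 each), and number 2 was the lowest of its own group in TFPIα, TFPIβ and empty vector. Of the sum of squares of SOCS3, 51.5% lay between replicate numbers and 17.9% between groups. IL6ST had similar shares, 51.4% and 16.8% (unadjusted p = 0.106), with means of 7.99 ± 0.06 in number 1 and 7.75 ± 0.20 in number 3 (SD, n = 3 each), and number 3 was the lowest of its own group in TFPIα, TFPIβ and empty vector. JAK1 and STAT3 showed the opposite, with 66.0% and 56.8% between groups and 12.3% and 16.9% between replicate numbers. The median probe set had 31.0% between groups and 30.7% between replicate numbers. STAT6 (44.8%) and STAT5B (43.3%) had more of their spread between groups than between numbers, JAK2 had 33.8% and 31.5%, and for STAT5A and TYK2 most of the spread, 61.0% and 63.2%, lay in neither.

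**Figure D3:**
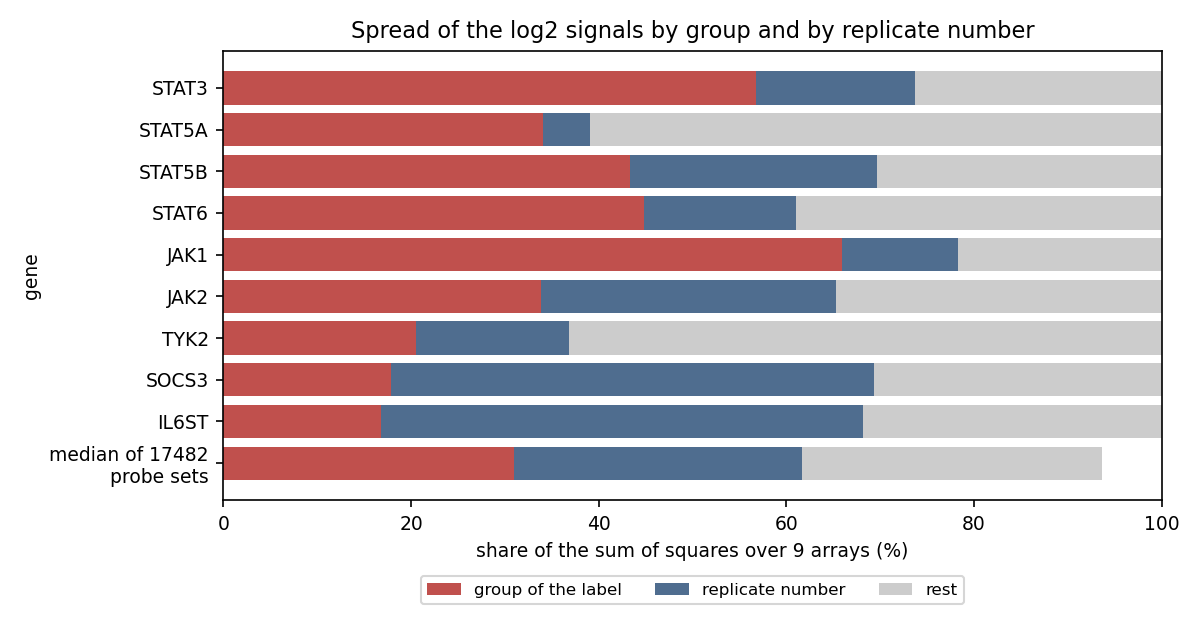
Share of the sum of squares over the 9 arrays (horizontal axis, in %) that lies between the groups of the label, between the replicate numbers and in the rest, for each of the 9 genes, with the medians over all tested probe sets in the last bar. The medians are taken share by share and do not add up to the full width. JAK1 and STAT3 have the widest group share and SOCS3 and IL6ST the widest replicate share.

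Over the 9 arrays the signals of STAT3, STAT5A, STAT6 and JAK1 followed one another. Among the 36 pairs of genes, 28 had a Pearson r above 0, and 5 pairs passed an exact permutation test at a Benjamini-Hochberg adjusted p under 0.05, two-sided, all of them among these 4 genes. The same number of pairs passed with Spearman's rho, whereas 2 pairs passed by r and 0 by rho once each array was centred on its median. STAT5A and JAK2 each reached the signal filter in 1 array only, so pairs with either are a description, with no test read from their p. Of the 5 pairs this holds for STAT5A with STAT6 and for STAT3 with STAT5A. A test is read only for STAT6 with JAK1, STAT3 with JAK1 and STAT3 with STAT6. The permutation treats the 9 arrays as independent, whereas they share 3 cell lines and 3 replicate numbers, so r is also given after removal of the means of either. STAT5A and STAT6 had r = 0.915 (rho = 0.883), 0.869 with group means removed and 0.947 with replicate means removed. STAT6 and JAK1 had r = 0.873 (rho = 0.917, exact p = 0.00152, adjusted p = 0.0274), and 0.782 and 0.877 after these removals. STAT3 and JAK1 had r = 0.855 (rho = 0.917, exact p = 0.00407, adjusted p = 0.0387), and 0.683 and 0.895. STAT3 with STAT5A had r = 0.837 (rho = 0.883), and STAT3 with STAT6 had r = 0.828 (rho = 0.883, exact p = 0.00537, adjusted p = 0.0387). The adjusted p of rho was 0.0221 for STAT6 with JAK1, STAT3 with JAK1 and STAT3 with STAT6. The 2 arrays farthest from the median of the first gene were then left out. Without them r of the 5 pairs was 0.761, 0.851, 0.737, 0.718 and 0.599, in the order in which they are given. The share of 11231 other genes that followed a gene at least as closely as its partner did was computed from either side of each pair. It was 0.107% from STAT5A and 0.249% from STAT6 for that pair, 0.873% from STAT6 and 1.26% from JAK1, 1.59% from STAT3 and 1.68% from JAK1, 2.16% from STAT3 and 1.14% from STAT5A, and 2.49% from STAT3 and 2.26% from STAT6.

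Of the neighbours on chromosome 17, STAT3 and STAT5A were among these pairs and STAT5B was not. STAT5B, which overlaps STAT5A, had r = 0.691 with it (rho = 0.529), and 0.270 without the 2 farthest arrays. JAK2 had a negative r with 7 of the other 8 genes, from -0.54 with JAK1 to -0.06 with STAT5B. Only with SOCS3 was r of JAK2 positive, at 0.450, and it was -0.674 without the 2 arrays farthest from the median of JAK2. SOCS3 and STAT3, the inhibitor and the factor known to switch it on, had r = 0.594 (rho = 0.450, exact p = 0.0934, adjusted p = 0.224). STAT5A followed TYK2 (r = 0.795) more closely than it followed JAK1 (r = 0.723), and both values are a description.

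**Figure D4:**
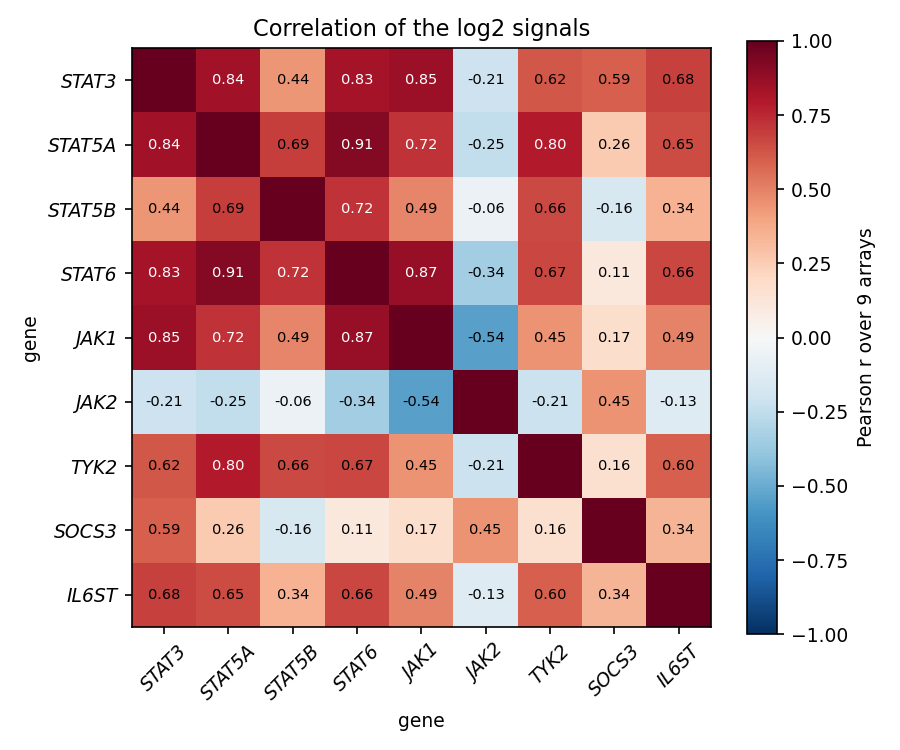
Pearson r over the 9 arrays between the log2 signals of each pair of the 9 genes (both axes list the genes), with red for positive and blue for negative values. STAT3, STAT5A, STAT6 and JAK1 have r between 0.723 and 0.915 with one another, and STAT5A has 0.795 with TYK2. JAK2 is the only gene with mostly negative values. STAT5A and JAK2 each reached the signal filter in 1 array only.

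JAK2 and SOCS3 varied most over the arrays, with SDs of 0.38 and 0.37. Of 11231 genes, those whose signals were most like JAK2 over the 9 arrays were ZBTB32 (r = 0.973), FKBP15 (r = 0.971), MAN1A1 (r = 0.971), IFNAR2 (r = 0.962) and TMEM131L (r = 0.961). IFNAR2 encodes a chain of the receptor for type I interferons. Those most like SOCS3 were P4HB (r = 0.952), ADAM17 (r = 0.929), RNF24 (r = 0.924), SKIC2 (r = 0.920) and SGK1 (r = 0.919). P4HB encodes protein disulfide isomerase, ADAM17 a protease that sheds membrane proteins, and SGK1 a kinase of the salt and glucocorticoid response. These genes were taken as the highest of many, so their r is a description, and the highest JAK2 signal stands in 1 array, replicate 3 of TFPIα.

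Further genes of the pathway were read from lists, and 0 of them were called by limma in any comparison. At an unadjusted p under 0.05, the ligands had 0 genes in either direction against empty vector. Over all probe sets 8.59% were higher and 5.58% lower in TFPIα, and 2.49% and 2.23% in TFPIβ. The receptors that pair with gp130 had 1 higher and 1 lower in TFPIα, and 0 and 1 in TFPIβ. The other receptors had 1 and 2, and 0 and 2. The inhibitors had 1 and 1, and 0 and 0. STAT4 and IRF9 together had 0 and 2, and 0 and 1. Of 9 listed ligands of gp130 only IL6, IL11 and CTF1 passed the filter. IL6 averaged 6.86 ± 1.96 in TFPIα and 5.29 ± 1.34 in TFPIβ, against 6.12 ± 0.10 in empty vector (SD, n = 3 each), with log2 differences of 0.73 (SE 0.96) and -0.84 (SE 0.96), both smaller than their standard errors. IL11 and CTF1 differed by between -0.07 and 0.18.

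Receptors came next. Of the 6 receptors that pair with gp130, 5 passed the filter, with a median log2 difference of -0.06 in TFPIα and 0.07 in TFPIβ against empty vector. OSMR, the partner for oncostatin M, averaged 8.80 ± 0.14 in TFPIα and 8.88 ± 0.12 in TFPIβ, against 9.14 ± 0.11 in empty vector (SD, n = 3 each), with differences of -0.34 (SE 0.11, adjusted p = 0.335) and -0.26 (SE 0.11, adjusted p = 1.00). IL27RA, the interleukin-27 receptor, differed by 0.54 (adjusted p = 0.335) and 0.15, and LIFR by -0.07 and -0.09. Of 22 other receptors that work through JAK kinases, 12 passed. In TFPIα 8 of them lay below 0 (median -0.17), and in TFPIβ 11 did (median -0.19), against 50.0% and 49.5% of all probe sets. IFNLR1 (-0.20 and -0.23) passed the filter through 1 array of empty vector alone, and IL7R through 1 of TFPIα alone. These counts and medians include both genes and are therefore a description. IFNGR1, the ligand-binding chain of the interferon-γ receptor, averaged 9.69 ± 0.31 in TFPIα and 10.34 ± 0.41 in TFPIβ, against 10.59 ± 0.22 in empty vector (SD, n = 3 each), a difference of -0.90 (SE 0.23, adjusted p = 0.335) and -0.24. IL13RA1, the interleukin-13 receptor that signals through STAT6, differed by -0.40 (adjusted p = 0.335) and -0.44 (SE 0.10, adjusted p = 0.801). The others with the widest differences were IL20RB (-0.58) in TFPIα, and IL4R (-0.59) and IFNGR2 (-0.26) in TFPIβ. IL7R passed the filter through 1 array of TFPIα alone, and its difference of 0.88 in that group, with a mean of 4.04, is given as a description.

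Among the remaining STAT factors, STAT4 averaged 4.65 ± 0.39 in TFPIα and 4.99 ± 0.39 in TFPIβ, against 5.61 ± 0.20 in empty vector (SD, n = 3 each), with differences of -0.95 (SE 0.24, adjusted p = 0.335) and -0.62 (adjusted p = 1.00). IRF9, a DNA-binding partner of STAT factors in the interferon response, differed by -0.59 (adjusted p = 0.346) and -0.35. STAT2 had no probe set with that symbol alone, and JAK3 lay under the filter. Of 18 listed inhibitors (other SOCS proteins, PIAS proteins, phosphatases and adaptors), 15 passed, with medians of 0.03 in TFPIα and -0.02 in TFPIβ. PIAS1, an inhibitor of activated STAT factors, differed by -0.53 (SE 0.23, adjusted p = 0.349) and -0.27, SOCS6 by 0.35 and 0.27, the ubiquitin ligase CBL by 0.34 in TFPIα and the phosphatase PTPN2 by -0.24 in TFPIβ.

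The targets were read last. Of 22 genes known as targets of STAT3, 18 passed the filter. In TFPIα 10 of them lay below 0 (median -0.13), with 4 lower and 1 higher at an unadjusted p under 0.05, and in TFPIβ 15 lay below 0 (median -0.29), with 4 lower and 0 higher. Over all probe sets 5.58% were lower and 8.59% higher at that level in TFPIα and 2.23% lower and 2.49% higher in TFPIβ, and 50.0% and 49.5% lay below 0. SERPINA3, an acute-phase protease inhibitor, averaged 7.32 ± 0.61 in TFPIα and 8.05 ± 0.17 in TFPIβ, against 9.58 ± 0.69 in empty vector (SD, n = 3 each). Its log2 differences of -2.26 (SE 0.38, adjusted p = 0.289) and -1.53 (SE 0.38, adjusted p = 0.801) were the widest of any pathway gene named here and did not pass. The acute-phase genes SAA1 and SAA2, whose near-identical sequences make each value uncertain, differed by -0.87 and -0.79 in TFPIα (adjusted p = 0.335 for both) and by -0.33 and -0.48 in TFPIβ. SOCS3, OSMR and IL4R belong to this list too, so it is not independent of the genes already given.

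Of 8 STAT5 targets 5 passed. BCL6, a transcriptional repressor, averaged 7.07 ± 0.23 in TFPIα and 7.76 ± 0.52 in TFPIβ, against 8.30 ± 0.34 in empty vector (SD, n = 3 each), differing by -1.23 (SE 0.27, adjusted p = 0.335) and -0.55. The cell cycle gene CCND1 differed by 0.66 (SE 0.27, adjusted p = 0.346) and -0.14, BCL2L1 by 0.11 and -0.21, and PIM1 by 0.18 in TFPIβ. The medians of these 5 were 0.04 and -0.14. Of 12 STAT6 targets 5 passed, with medians of -0.08 and 0.06. SERPINB3 (-0.37 and -0.76) passed the filter through 1 array of TFPIα alone and POSTN (0.48 and 0.46) through 1 array of TFPIβ alone, so their values and this list's medians are a description, and TGM2 differed by 0.26 in TFPIα (adjusted p = 0.460).

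**Figure D5:**
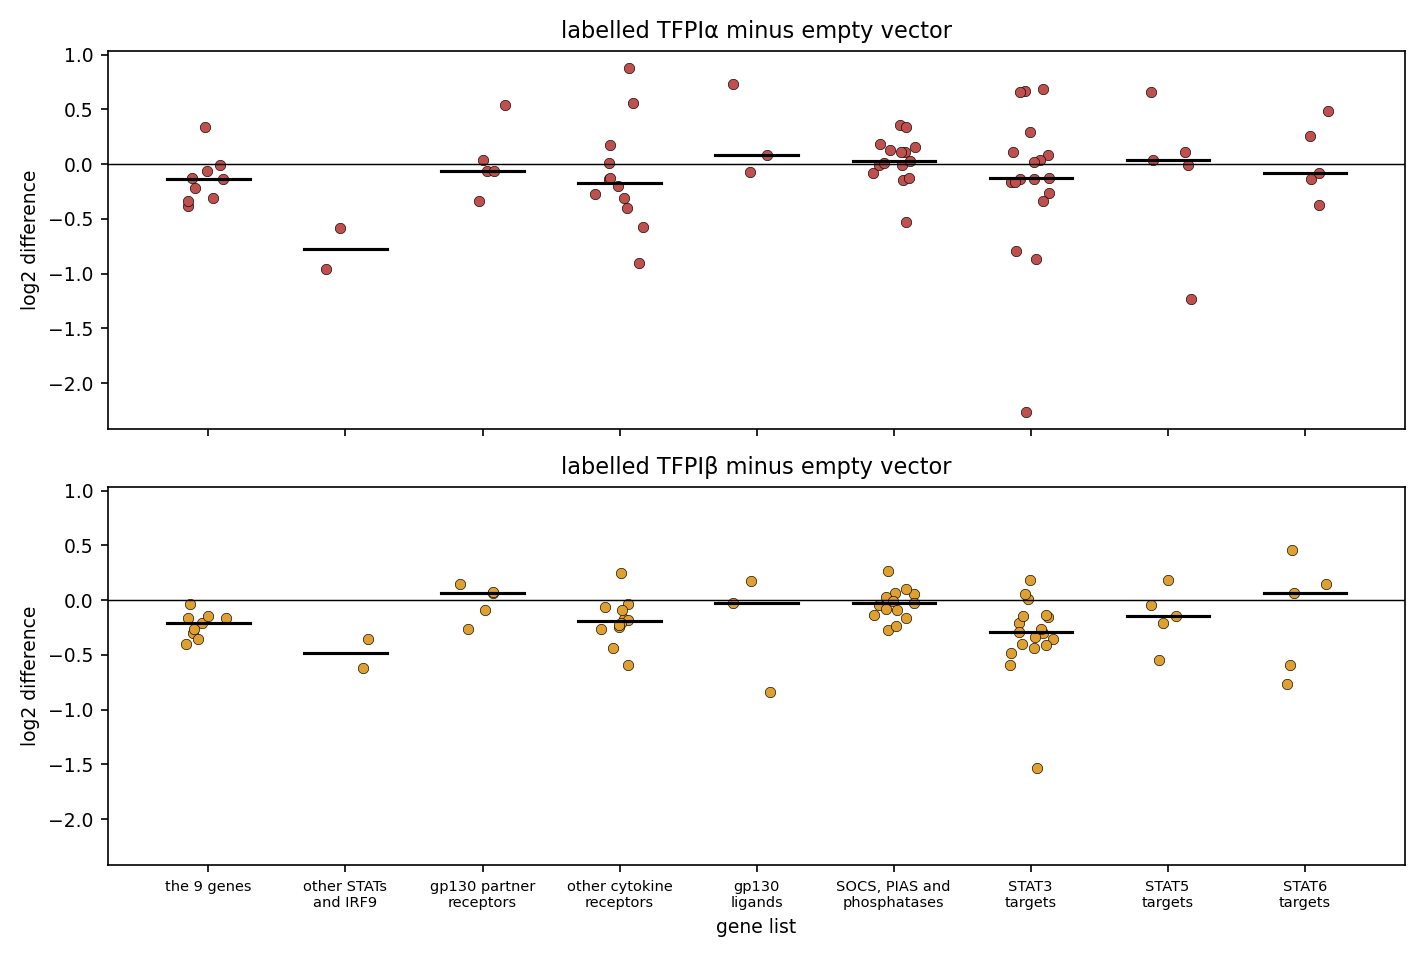
Log2 difference (vertical axis) of each gene that passed the filter, by gene list (horizontal axis), for the arrays labelled TFPIα (top) and TFPIβ (bottom) minus empty vector, with bars for the median of each list. The point farthest from 0 is SERPINA3 among the STAT3 targets, at -2.26 and -1.53, and no point passed the test.

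Values of other gene groups are set beside these, and 0 of their genes were called. All 10 genes of a proliferation list lay above 0 in TFPIα against empty vector (median 1.11), whereas 50.0% of all probe sets lay below 0, and 4 of them were higher at an unadjusted p under 0.05, against 8.59% of all probe sets, with MCM5 at 1.59, TYMS at 1.33 and PCNA at 1.32. The mean log2 signal of the list lay between 8.72 and 8.75 in the arrays labelled TFPIα and between 6.73 and 8.79 in those labelled TFPIβ, against 7.15 to 8.05 in those labelled empty vector. In TFPIβ 7 of 10 lay above 0 (median 0.14) and 0 had such a p, with PCNA at 0.45 and MCM2 and MCM5 at 0.30. Of the 5 fibroblast markers 3 passed. The log2 of their summed signal was 9.82 to 10.45 in TFPIα and 9.85 to 9.97 in TFPIβ, against 10.63 to 11.27 in empty vector. DCN, with a mean of 10.13, makes up most of that sum. The mean log2 signal of the same 3 markers overlapped between groups. It was 6.34 to 7.30 in TFPIα and 6.67 to 6.98 in TFPIβ, against 6.77 to 7.58 in empty vector. DCN differed by -0.90 in TFPIα and -1.26 in TFPIβ and COL1A1 by -0.80 and -0.08, whereas LUM, let through the filter by 1 array of TFPIα, differed by 0.38 and 0.32, and COL1A2 and COL3A1 lay under the filter. The 2 leukocyte markers that passed summed to 8.10 to 8.88 in TFPIα and 8.05 to 8.89 in TFPIβ, against 8.47 to 9.56 in empty vector. The part of these groups in the values of STAT3, JAK1 and STAT6 was not tested.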

How the data were processed

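Total RNA from 3 isolations of each of 3 cell lines was hybridised to the Affymetrix Human Gene 1.0 ST array. The authors scanned the arrays and normalized the signals with RMA in the Partek Genomics Suite, which the submitters' processing notes name too (versions not given in the sources used here). The deposited values are log2 signals, 1 per probe set, with the log base read from their range. The miRNA arrays, qRT-PCR and blots of the study were not analysed here.

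Probe sets whose highest log2 signal was under 5 were removed, which left 17482 of 33297 (11838 with 1 symbol, 1150 with several, 4494 with none). One limma fit (version 3.58.1 in R 4.3.3, lmFit and eBayes) held all 9 arrays, and p-values were adjusted over all tested probe sets by Benjamini-Hochberg. Calls needed an absolute log2 difference of at least 1, which is a 2-fold change, and an adjusted p under 0.05. The fit was tested on simulated data. Precision is limited by having 3 arrays in a group, and an exact permutation of 3 against 3 cannot go below p = 0.1. Pair correlations and figures were made in Python 3.11.15 with numpy 2.4.6 and matplotlib 3.10.9.

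The members and the gene lists were chosen with earlier results of these data known. All 9 members were named, and from each list up to 3 genes with the widest absolute log2 difference in each comparison with empty vector. For the 2 members with the highest SD the 5 genes most correlated with them were named. Symbols came from the array annotation, and gene positions and promoters from RefSeq on GRCh38.p14. Some genes are not reported here.

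The labels number the biological replicates of each group 1 to 3. After removal of group means, arrays of different groups that carry 1 number correlated at 0.137 to 0.594 (9 pairs). Those that carry different numbers correlated at -0.512 to 0.266 (18 pairs). The ranges overlap, so whether the numbers pair the arrays is not settled, and a fit with the number as a block was run as an alternative.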

Additional observations from a re-analysis of the deposited data

How the results depend on the processing

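No member was called in any comparison under any of the alternatives run: no signal filter, a filter at 6, centred arrays, a trended and robust prior, probe sets with 1 symbol, an adjusted p under 0.10, the one-way model, only the compared groups, no fold change limit, arithmetic means, the replicate block, and each array left out. The lowest adjusted p of a member was 0.148. Of 378 alternative values of the 27 member differences, 357 kept their sign and 21 did not. Many of these signs were fixed in advance, so the count does not measure stability. Removing the filter, the trended prior, the replicate block and fitting only the compared groups leave a difference as it is. So does leaving out an array of the group that is not compared. Every member has 1 probe set, so no other probe set could be tried.

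Over all probe sets, the count of 1 called in TFPIα against empty vector became 0 with no filter, with centred arrays, with the replicate block, with the one-way model and with only the compared groups, and ranged from 0 to 4 with arrays left out (4 without replicate 3 of TFPIα, 1 without replicate 3 of empty vector, otherwise 0). With the replicate block 1 probe set was called in TFPIβ against TFPIα. The block changed no call of a member. The test of the replicate number, with 0 calls as reported, called 2 probe sets with no filter and 0 to 1 with arrays left out. With centred arrays 2 pair correlations passed in place of 5, and 0 by Spearman's rho. Both counts by r include the pair of STAT5A with STAT6, and the count of 5 also that of STAT3 with STAT5A. No test is read from either pair.

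With centred arrays the log2 difference of IL6ST in TFPIα against empty vector was 0.0149, and in TFPIβ against TFPIα that of STAT6 was -0.0217, of STAT5A -0.0223 and of TYK2 -0.00155. With arrays left out, differences against empty vector ranged from -0.26 to 0.00762 for SOCS3 and from -0.073 to 0.0742 for IL6ST in TFPIα, and in TFPIβ from -0.0742 to 0.0142 for TYK2, from -0.25 to 0.00518 for IL6ST and from -0.30 to 0.0386 for JAK2. In TFPIβ against TFPIα they ranged from -0.00375 to 0.19 for JAK1, from -0.0959 to 0.15 for STAT6, from -0.065 to 0.0991 for STAT5A, from -0.0395 to 0.00264 for STAT5B, from -0.16 to 0.15 for STAT3 and from -0.24 to 0.0147 for IL6ST. The cause of these changes was not tested. JAK2 and STAT5A lie near the filter, where an array separates signal from background least.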
